A study of Mus musculus with 74 samples.

Results

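The immediate-early and stress-induced gene families were followed through 4 h of TGF-β treatment in 5 mouse cell lines or conditions. Members were all array probes with a single gene symbol that begins with the name of a Fos, Jun, Egr, Ier, Atf, Dusp, Myc, small Maf, Nr4a, Klf, Btg, Zfp36, Cebp, Nfkbi, Socs, Pim, Ets, Elk, Srf or Spry gene, without Klf10. This gave 67 of the 8976 probes, for 52 of the 5844 genes with such a probe. Among them, 10 probes of 8 genes share only the first letters of the name with a family and are not known immediate-early genes (Zfp362 with 3 probes, Spryd3, Spryd4, Spryd7, Myct1, Mycbp, Mycbp2 and Ier3ip1). That leaves 57 probes of 44 family genes. The rule uses gene names and no expression value, but it was set with earlier results of these data known. Of 47 well-known genes of these families, 19 had a probe, and Egr1, Jun, Junb, Dusp1 and Dusp6 were among the 28 not analysed here.

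Each of the 74 arrays compared 2 RNA samples of a line. At 0.3 h and later the labels give cells with and without TGF-β, except S3KO at 0.3 h, labelled without TGF-β in both channels. The lines carry the labels S3KO, S2KO, U0126, S2WT and S3WT, with arrays at 0, 0.3, 1, 2 and 4 h. Every time of a line has 3 arrays apart from S3KO at 1 h, which has 2. The labels do not spell out S2 and S3 or name the cell type; in the published study of this design the cells were embryo fibroblasts lacking Smad2 (S2KO) or Smad3 (S3KO), with a wild-type line for each (S2WT and S3WT). The U0126 arrays are named for an inhibitor of MEK, the kinase that activates ERK, which the channel labels name together with S2WT in both channels. Their titles could also be read as S2WT against U0126, in which case the ratio would hold an effect of the drug. A ratio within a line cannot show whether Smad2 or Smad3 is absent, so the knockouts were not checked here, and no marker of the cell type was tested. The 0 h arrays compared untreated RNA with untreated RNA and so give the background of each probe. Which channel is the numerator is nowhere stated, and the ratio was read as TGF-β over no TGF-β, which is likely but not certain.

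Immediate-early genes are switched on by growth factors, serum or stress within minutes, before any new protein is needed, largely through ERK and other MAP kinases that act on factors such as Srf, its Ets-family partners and Creb. Many encode transcription factors, and others encode the brakes of the same signal: Dusp phosphatases, Socs and Spry proteins, IκB proteins (Nfkbi) and Zfp36 proteins, which bind AU-rich mRNAs and promote their decay. TGF-β signals mainly through Smad2 and Smad3, and in fibroblasts it can also activate MAP kinases.

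An array gave 7688 to 8713 values, and 54 to 67 of the members were measured on each. Of the member values 5.26% were blank, and 18 of the 67 members were measured on all 74 arrays. Correlations between replicate arrays ran from -0.20 to 0.65 over 73 pairs, and no pair was identical. The sources used here do not say whether replicates came from separate cultures, so the p-values may reflect technical spread only. On 3 arrays the correlation with the mean 0 h ratios of the other lines was below 0: over all probes it was -0.16 for S3KO 1 h replicate 2, -0.11 for S3KO 0 h replicate 1 and -0.05 for S3KO 0 h replicate 2, and 0.08 or more on every other array. Over probes measured on every array these 3 were at -0.38, -0.16 and -0.10, against 0.55 for S3KO 1 h replicate 3 and 0.58 for S3KO 0 h replicate 3. The S3KO 0 h arrays had 7871, 7688 and 8210 values, and they enter the pooled 0 h mean used below. Source names of the S2WT 4 h arrays say 2 h, and those of S3KO at 0.3 h name no TGF-β for both channels; the titles were followed. In these bulk samples a change in RNA per cell and a change in the mix of cells cannot be told apart.

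Promoters are shown for member genes that were called in S2KO against the 0 h arrays of all lines, as described below. They are given where the RefSeq promoter table (GRCm38.p6) holds an entry, from 250 bases before to 50 bases after the start. Capitals mark a CRE (TGACGTCA), an AP-1 site (TGANTCA) or an EGR site (GCGNGGGCG), searched on both strands.
Btg2, chr1:134079106-134079405, minus strand: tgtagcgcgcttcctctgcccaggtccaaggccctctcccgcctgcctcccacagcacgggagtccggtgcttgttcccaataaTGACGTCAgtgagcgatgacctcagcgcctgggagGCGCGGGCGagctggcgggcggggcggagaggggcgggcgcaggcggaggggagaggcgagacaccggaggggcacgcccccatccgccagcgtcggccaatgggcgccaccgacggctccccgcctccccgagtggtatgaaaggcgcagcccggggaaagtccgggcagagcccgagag
Nr4a1, chr15:101266596-101266895, plus strand: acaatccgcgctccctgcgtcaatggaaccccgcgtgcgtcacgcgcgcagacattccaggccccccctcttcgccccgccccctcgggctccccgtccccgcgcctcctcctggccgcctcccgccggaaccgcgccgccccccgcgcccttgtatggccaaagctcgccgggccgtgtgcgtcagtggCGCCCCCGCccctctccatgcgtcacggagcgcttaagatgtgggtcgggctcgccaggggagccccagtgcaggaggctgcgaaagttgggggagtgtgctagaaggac
Maff, second start, chr15:79347270-79347569, plus strand: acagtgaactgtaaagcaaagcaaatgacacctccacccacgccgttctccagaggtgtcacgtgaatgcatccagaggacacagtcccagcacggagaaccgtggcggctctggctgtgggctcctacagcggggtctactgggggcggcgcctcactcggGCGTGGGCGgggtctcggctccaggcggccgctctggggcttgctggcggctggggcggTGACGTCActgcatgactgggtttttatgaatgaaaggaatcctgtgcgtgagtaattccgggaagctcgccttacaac
Zfp36l1, chr12:80112964-80113263, minus strand: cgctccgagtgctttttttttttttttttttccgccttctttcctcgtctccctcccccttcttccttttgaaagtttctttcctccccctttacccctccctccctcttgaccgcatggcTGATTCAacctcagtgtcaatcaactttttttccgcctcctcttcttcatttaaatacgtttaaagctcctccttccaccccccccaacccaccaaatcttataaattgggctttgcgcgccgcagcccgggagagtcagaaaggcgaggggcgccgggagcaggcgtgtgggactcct
Btg2 and the second start of Maff each hold a CRE and an EGR site, Nr4a1 holds an EGR site on the opposite strand, and Zfp36l1 holds an AP-1 site. The table has 3 starts for Maff, and the first and the third hold none of these motifs. The promoters of Ets2, Fos and Nfkbia were searched too, are not shown and hold none of them either.

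Among the 42 promoters found for 37 of the 52 member genes, 2 hold a CRE, against 1.79% of all 32851 promoters in the table. An EGR site was found in 13 of the 42 (31%), against 5.55% of all, and the GC box GGGCGG in 31 (73.8%), against 35.7%. The GC box can overlap the EGR site. AP-1 sites were found in 2 of the 42 promoters, against 7.81% of all promoters. A CArG box, the recognition motif of Srf, was found in 2 member promoters, against 1.63% of all. The Smad palindrome GTCTAGAC was found in 1, against 0.213% of all. The Ets site CCGGAAG was found in 4, against 8.86% of all. These matches describe letters in a window and show no binding. Ier2, Socs2, Myc and Zfp362 are named without a promoter.

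To measure a response, the mean of the 1, 2 and 4 h groups of a line was compared with its own 0 h arrays and with the mean of the 0 h groups of all 5 lines, which has a smaller error and is shared by the comparisons of the 5 lines. All values below are log2 ratios centred on the median of the array, and differences are log2 differences ± SE. "Called" means an adjusted p under 0.05 by limma's moderated test with Benjamini-Hochberg adjustment over all tested probes.

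Few members responded, and the clearest were in S2KO cells. Against the pooled 0 h arrays, 7 of 56 tested member probes were higher and 1 was lower in S2KO, where 2.49% of all 7444 tested probes were called, 1.91% higher and 0.578% lower. Of those 8 calls, 2 are probes of Zfp362, a zinc finger gene that shares only its name with Zfp36, so 6 of 48 tested family probes were called. In S2WT 1 of 56 members rose and 1 fell, against 1.27% of all probes called. In U0126 2 of 57 members fell, against 0.782% of all probes called. No member of 56 was called in S3WT, where 0.146% of all probes were, and none of 53 in S3KO, where 0.0141% were. At an unadjusted p under 0.05 the counts were 20 in S2KO (all probes 14.9%), 15 in S2WT (12.3%), 7 in U0126 (10.6%), 8 in S3WT (8.41%) and 2 in S3KO (5.17%). The median member difference was 0.09 in S2KO, against 0.00 for all probes, and lay between -0.02 and 0.11 in the other lines; without centring it was -0.11 in S2WT, where all probes were at -0.17. The S2KO count depends on single arrays: it was 3 without replicate 1 at 4 h and 11 without replicate 2 at 4 h, 4 without replicate 1 at 1 h, and 5 without S2KO 0 h replicate 3, 2 h replicate 1, 4 h replicate 3 or U0126 0 h replicate 1 or 2. The S2WT count was 5 without S2WT 0 h replicate 2, 4 without S2WT 4 h replicate 2 or S3KO 0 h replicate 3, and 1 without S2WT 1 h replicate 1, S2KO 0 h replicate 3 or U0126 0 h replicate 1 or 2. Without S2KO 0 h replicate 3 or U0126 0 h replicate 1 or 2, too few arrays of that group measured Ier2, and it was not tested. For those arrays the lower S2WT count is this loss of testing alone, and the lower S2KO count is so in part. The U0126 count was 0 without U0126 replicate 3 at 2 h or at 4 h, and 1 in the other fits where it changed. Leaving the S3KO 0 h arrays out of the pool gave 4 calls in S2KO, 0 in U0126 and 1 in S2WT. Estimating the spread from the S2KO arrays and all 0 h arrays alone left 2 calls in S2KO, both of Zfp362. The S2KO calls of Ier2, Btg2, Nr4a1, Maff, Socs2 and Zfp36l1 were all lost in that fit. Scaling the arrays to a common spread left 0 members higher and 1 lower in S2KO and none called in S2WT. Without centring 1 member was higher and 4 were lower in S2WT.

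**Figure D1:**
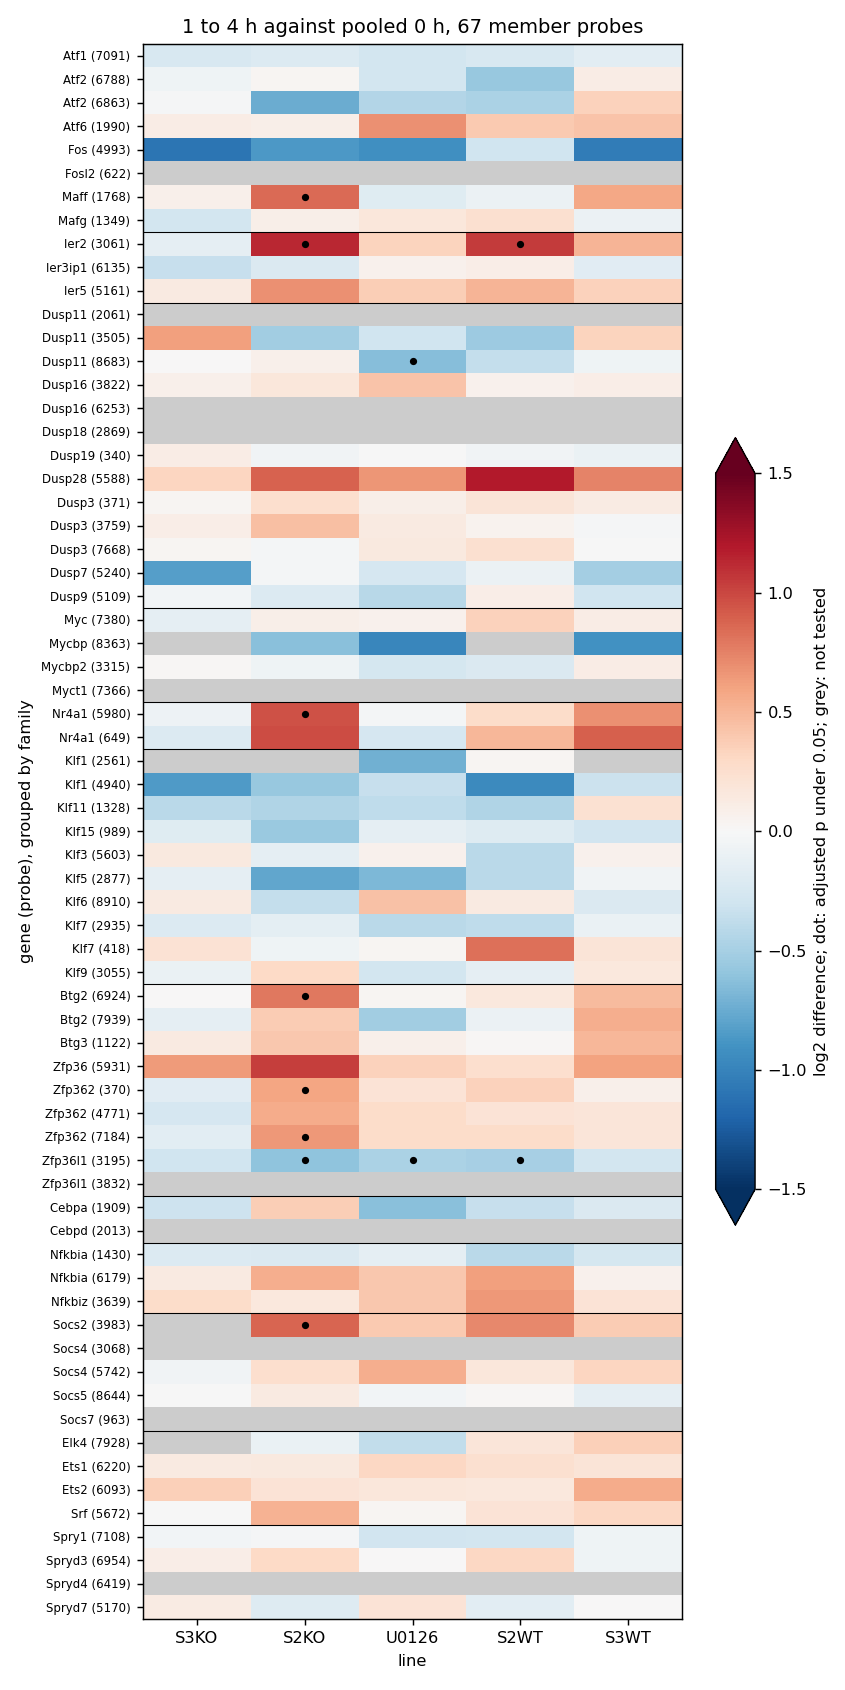
Log2 difference of the 1 to 4 h arrays from the pooled 0 h arrays for each of the 67 member probes (rows, by family) in the 5 lines (columns). Dots mark adjusted p under 0.05 and grey marks probes that were not tested; 8 dots lie in S2KO, 2 in S2WT, 2 in U0126 and none in S3KO or S3WT.

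Against the 0 h arrays of the same line, which are only 3, none of these calls was kept. No member was called in S2KO (64 tested, 0.515% of all probes called), S2WT (62, 0.192%), U0126 (65, 0.0719%) or S3WT (63, 0.12%). At an unadjusted p under 0.05 there were 9 members in S2KO (all probes 8.22%), 10 in S2WT (7.8%), 4 in U0126 (6.35%) and 4 in S3WT (5.47%). In S3KO, which had no pooled call, 1 of 55 was called, where 1.53% of all probes were. That probe was Ets2, a transcription factor that ERK phosphorylates, at 1.33 ± 0.34 (adjusted p 0.03 by limma). Ets2 lay between -0.41 and 0.27 on the 8 S3KO arrays at 1 to 4 h, against -0.02, -3.63 and -0.82 at 0 h. The 0 h array at -3.63 set this difference: without it the value was 0.26, and with the treated arrays tested against 0 it was -0.16 (adjusted p 0.774). The call was also lost without S3KO 1 h replicate 2.

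Ier2, a nuclear protein gene that serum induces at once, was the member that rose in 2 lines. In S2KO cells it read 1.65, 1.02 and 0.15 at 1 h, 1.48, 0.80 and 0.68 at 2 h, and 3.67, 1.46 and 2.26 at 4 h, against 1.10 and 0.38 on its 2 measured 0 h arrays. In S2WT cells Ier2 read 1.26, 1.0 and 0.72 at 1 h, 1.59, 1.62 and 1.82 at 2 h, and 1.32, 1.5 and 1.57 at 4 h, against 0.58, 0.53 and 0.10 at 0 h. All 9 treated S2WT arrays and 8 of 9 in S2KO lay above the median of the 13 measured 0 h arrays, which was 0.47. The groups overlapped, since the 0 h arrays ran from -1.94 to 1.10. Against the pooled 0 h arrays the difference was 1.13 ± 0.25 in S2KO (adjusted p 0.00313 by limma) and 1.05 ± 0.25 in S2WT (adjusted p 0.0163). Against own 0 h arrays Ier2 was not called in any line: it was at 0.80 ± 0.38 in S3KO (adjusted p 0.418), 0.73 ± 0.44 in S2KO (adjusted p 0.743), -0.05 ± 0.44 in U0126, 0.97 ± 0.37 in S2WT (adjusted p 0.408) and 0.45 ± 0.37 in S3WT.

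Both pooled calls of Ier2 were kept in all 20 fits with a single array left out in which it was tested, of 24 run. Both were lost after scaling the arrays to a common spread, at 0.84 in S2KO (adjusted p 0.0862 by limma) and 0.95 in S2WT (adjusted p 0.055). The S2KO call was also lost with the spread taken from the S2KO and 0 h arrays alone (adjusted p 0.0897). The 0 h value of -1.94 for Ier2 came from S3KO, where the 3 arrays at 0 h read -1.94, -0.40 and 0.55. Leaving the S3KO arrays out of the pool gave 0.90 in S2KO (adjusted p 0.0552) and 0.82 in S2WT (adjusted p 0.153), so both calls rest on these arrays. The S2WT call was also lost without the 4 h arrays whose labels conflict (1.01, adjusted p 0.126).

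In the other lines Ier2 was not called. In S3WT it read 0.83, 1.96 and 2.08 at 0.3 h, 0.96, 1.71 and 1.73 at 1 h, -0.50, 1.06 and 1.75 at 2 h, and -0.53, 1.30 and 0.12 at 4 h, against 0.47, 0.37 and 0.33 at 0 h. Every S3WT array at 0.3 and 1 h was above every S3WT array at 0 h, whereas replicate 1 at 2 and 4 h and replicate 3 at 4 h lay below them. At 0.3 h the S3WT difference from the pooled 0 h arrays was 1.29 ± 0.36 (p 0.00077, adjusted p 0.134 by limma), which was not called. In S3KO the 8 arrays at 1 to 4 h lay between -0.32 and 0.67, and in U0126 the 9 lay between 0.26 and 0.92. None of those exceeded the highest 0 h array.

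**Figure D2:**
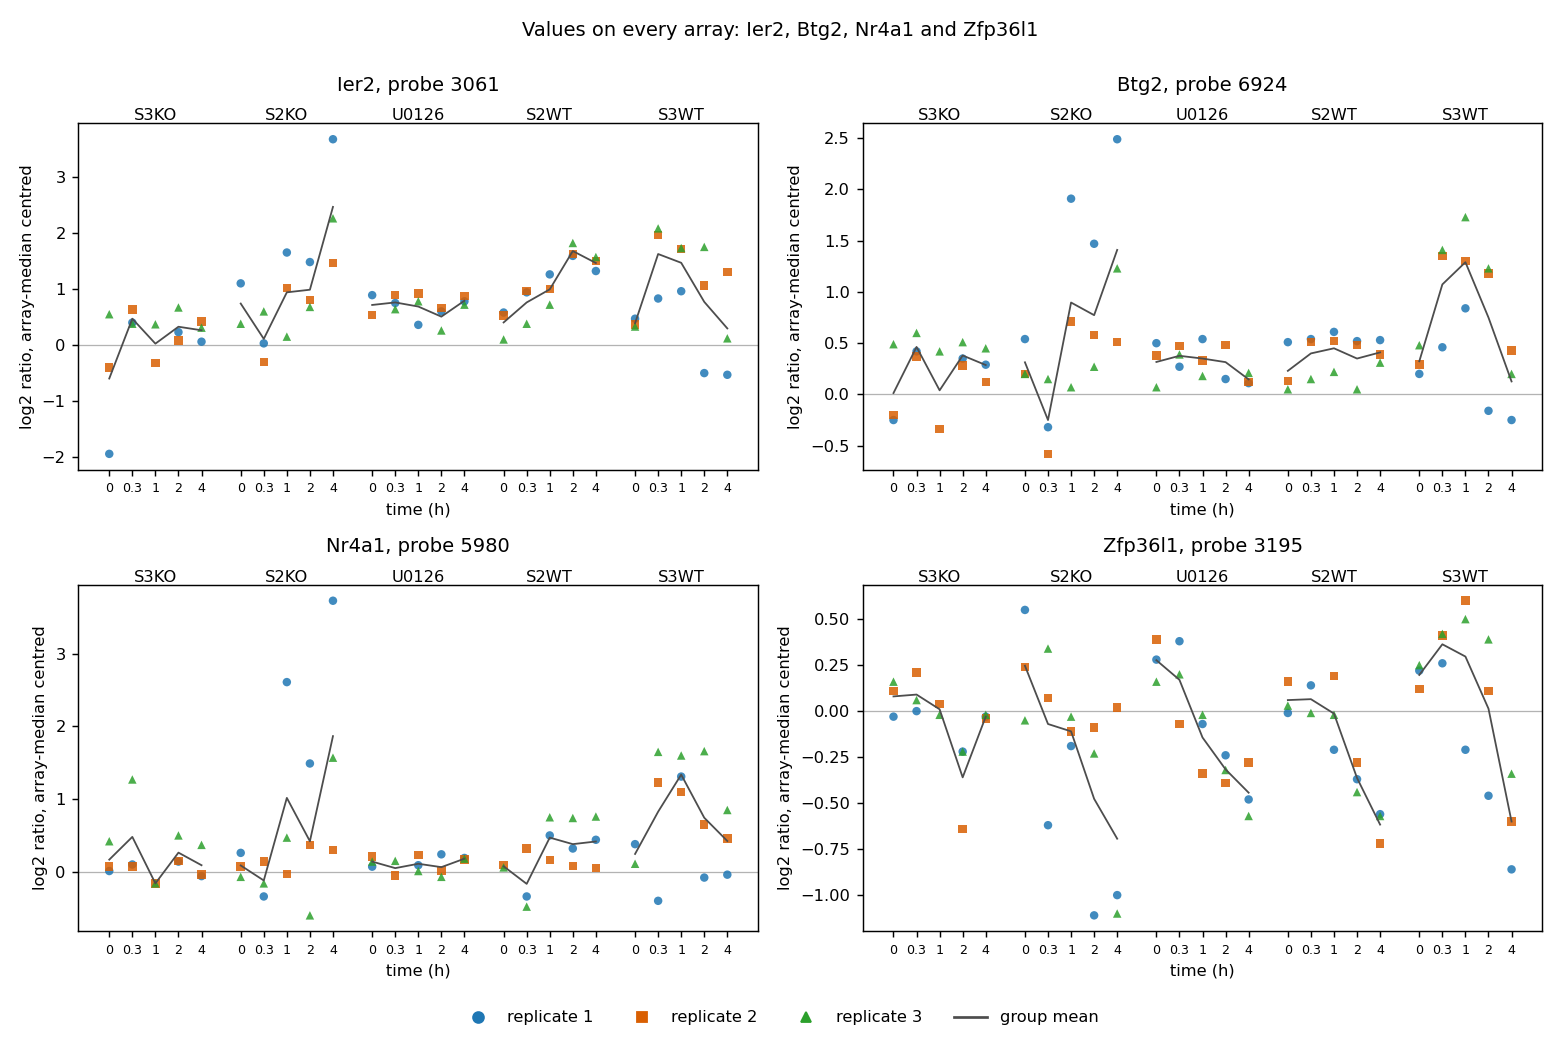
Centred log2 ratio on every array (vertical axis) against time in h (horizontal axis, by line) for Ier2, Btg2, Nr4a1 and Zfp36l1, with 1 marker shape per replicate number and a line through the group means. Within a line, the group means of the first 3 genes are highest at 4 h in S2KO and at 0.3 or 1 h in S3WT, and Zfp36l1 is lowest at 4 h in S2KO, U0126, S2WT and S3WT.

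Btg2, an antiproliferative gene that p53 also induces, rose in S2KO on 1 of its 2 probes. Probe 6924 read 1.91, 0.71 and 0.07 at 1 h, 1.47, 0.58 and 0.27 at 2 h, and 2.49, 0.51 and 1.23 at 4 h in S2KO, against 0.54, 0.20 and 0.20 at 0 h. Replicate 1 was highest at each of these times. The difference from the pooled 0 h arrays was 0.79 ± 0.18 (adjusted p 0.00615 by limma), and it was no longer called without replicate 1 at 1 h or at 4 h. In S3WT the same Btg2 probe read 0.46, 1.35 and 1.41 at 0.3 h, 0.84, 1.30 and 1.73 at 1 h, -0.16, 1.18 and 1.23 at 2 h, and -0.25, 0.43 and 0.20 at 4 h, against 0.20, 0.29 and 0.48 at 0 h. That S3WT difference over 1 to 4 h was 0.48 ± 0.18 (adjusted p 0.367), and the one at 0.3 h was 0.83 ± 0.27 (adjusted p 0.277). S3KO, U0126 and S2WT stayed between -0.34 and 0.61 at 1 to 4 h. The other Btg2 probe, 7939, read 2.76, 0.05 and 1.22 in S2KO at 4 h, against -0.27, -0.34 and 2.67 at 0 h, and was not called.

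Nr4a1 encodes an orphan nuclear receptor of the immediate-early class. Its probe 5980 read 2.61, -0.03 and 0.47 at 1 h, 1.49, 0.37 and -0.60 at 2 h, and 3.73, 0.30 and 1.57 at 4 h in S2KO, against 0.26, 0.07 and -0.07 at 0 h. The Nr4a1 rise in S2KO was thus large on replicate 1 and small or absent on replicate 2. Its difference from the pooled 0 h arrays, 0.96 ± 0.28, only just passed (adjusted p 0.0491 by limma). Of the 24 fits with a single array left out, this probe was tested in 20 and called in 5. In S3WT the Nr4a1 probe read -0.40, 1.23 and 1.65 at 0.3 h, 1.31, 1.10 and 1.60 at 1 h, -0.08, 0.65 and 1.66 at 2 h, and -0.04, 0.46 and 0.85 at 4 h, against 0.38 and 0.11 at 0 h. Over 1 to 4 h that was 0.69 ± 0.28 (adjusted p 0.406). The 9 U0126 arrays at 1 to 4 h lay between -0.07 and 0.24, and the 13 measured 0 h arrays of all lines between -0.07 and 0.42. The other Nr4a1 probe, 649, had a difference of 0.98 in S2KO (adjusted p 0.307) and 0.90 in S3WT, with a much larger spread between arrays.

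Maff and Socs2 were the other family genes that rose in S2KO. Maff, a small Maf protein that pairs with other basic leucine zipper factors, read 1.42, 0.17 and -0.10 at 1 h, 1.17, -0.14 and 1.71 at 2 h, and 2.71, 0.10 and 2.49 at 4 h in S2KO, against -0.21, -0.05 and 0.15 at 0 h. At 4 h replicate 2 stayed near the 0 h values while replicates 1 and 3 were far above them. The Maff difference was 0.85 ± 0.22 (adjusted p 0.0196 by limma), and 20 of 24 fits with a single array left out kept it. It was lost without S2KO 1 h replicate 1, 2 h replicate 3, 4 h replicate 1 or 4 h replicate 3, and without centring (0.75, adjusted p 0.0894). Maff also lay above all 0 h arrays on 6 of 9 S3WT arrays (0.58 ± 0.22, adjusted p 0.37) and on no U0126 array, where the highest was 0.28. Socs2, an inhibitor of cytokine and growth hormone signalling, ran from -0.31 through a median of 0.82 to 2.68 on the 9 S2KO arrays at 1 to 4 h, against -0.98, 0.04 and 1.29 on the 15 arrays at 0 h. Its difference was 0.87 ± 0.22 in S2KO (adjusted p 0.0189; 0.72, adjusted p 0.111, without the S3KO 0 h arrays) and 0.72 ± 0.22 in S2WT (adjusted p 0.097). The Socs2 call was lost without S2KO 1 h replicate 2, 2 h replicate 1 or 4 h replicate 1.

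Zfp36l1 was the member that fell in the most lines. The gene encodes an RNA-binding protein that speeds the decay of AU-rich mRNAs. Its probe 3195 read -0.19, -0.11 and -0.03 at 1 h, -1.11, -0.09 and -0.23 at 2 h, and -1.0, 0.02 and -1.10 at 4 h in S2KO, against 0.55, 0.24 and -0.05 at 0 h. In U0126 it read -0.07, -0.34 and -0.02 at 1 h, -0.24, -0.39 and -0.32 at 2 h, and -0.48, -0.28 and -0.57 at 4 h, against 0.28, 0.39 and 0.16 at 0 h. In S2WT it read -0.21, 0.19 and -0.02 at 1 h, -0.37, -0.28 and -0.44 at 2 h, and -0.56, -0.72 and -0.57 at 4 h, against -0.01, 0.16 and 0.03 at 0 h. Each array at 2 and 4 h lay below every 0 h array of its line in U0126 and S2WT. In S2KO replicate 2 at 4 h did not lie below its line's 0 h arrays, where the lowest was -0.05.

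Against the pooled 0 h arrays, the Zfp36l1 probe fell by 0.60 in S2KO (SE 0.12, adjusted p 0.00113 by limma), by 0.47 in U0126 (SE 0.12, adjusted p 0.0379) and by 0.50 in S2WT (SE 0.12, adjusted p 0.0178). Over fits with a single array left out, the S2KO call was kept in 24 of 24, the S2WT call in 23 of 24 and the U0126 call in 13 of 24. The exception in S2WT was 1 h replicate 1 (adjusted p 0.0524). Other settings lost each call. In S2KO it was lost with the spread taken from the S2KO and 0 h arrays alone (adjusted p 0.0658 by limma), and in S2WT after scaling (-0.43, adjusted p 0.0798). In U0126 it was lost without centring (adjusted p 0.0901) and without the S3KO 0 h arrays (-0.50, adjusted p 0.0628). Without the S2WT 4 h arrays the S2WT value was -0.36 (adjusted p 0.373). In S3WT the values were -0.21, 0.60 and 0.50 at 1 h and -0.86, -0.60 and -0.34 at 4 h, a difference between these times of -0.90 ± 0.23 (p 0.000298, adjusted p 0.129). In S3KO the Zfp36l1 ratios at 4 h were -0.03, -0.04 and -0.02, against -0.03, 0.11 and 0.16 at 0 h. Over 1 to 4 h the S3KO difference from the pool was -0.30 ± 0.13 (adjusted p 0.849), so a fall there was not shown. The other Zfp36l1 probe, 3832, was not tested against the pool because 2 of the 3 S3KO 0 h arrays lacked it. It was at -1.09, -0.27 and -0.82 in S2KO at 4 h, against 0.52, 0.13 and -0.21 at 0 h. Zfp36 itself, tristetraprolin, ran from 0.15 to 2.34 on the S2KO arrays at 1 to 4 h, and its difference of 1.04 ± 0.43 was not called (adjusted p 0.222).

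Between 1 and 4 h, Myc was the member that changed. Myc, the growth-promoting transcription factor, read 1.67, 0.55 and 2.45 at 4 h in S2KO, against 0.00, -0.30 and -0.35 at 1 h. All 3 arrays at 4 h lay above all 3 at 1 h, with a difference of 1.78 ± 0.37 (adjusted p 0.0109 by limma). This was 1 of 67 tested members, with 0.753% of all probes called. Leaving out single arrays kept the call in 4 of 6 fits, and it was lost without replicate 1 or without replicate 3 at 4 h (lowest value 1.33). It was also lost after scaling the arrays to a common spread (1.37, adjusted p 0.212 by limma) and with the S2KO arrays alone fitted (adjusted p 0.626). In S2WT Myc read 1.09, 1.14 and 1.27 at 4 h, against 0.45, 0.30 and 0.41 at 1 h and 0.17, -0.09 and 0.11 at 0 h. That S2WT difference between 4 and 1 h was 0.78 ± 0.37 (adjusted p 0.723). The 0 h arrays of other lines were themselves positive for Myc, up to 1.03 in U0126, and over 1 to 4 h no line passed against the pool. In S2KO 3 of the 9 arrays at 1 to 4 h lay below the lowest 0 h array of all lines (-0.09), down to -0.55. Over 1 to 4 h the Myc difference from own 0 h arrays in S2KO was 0.07 at most. The call in S2KO is thus a change from 1 h and not a rise over 0 h.

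No member was called between 4 and 1 h in S3KO (0.19% of all probes called), U0126 (0.139%), S2WT (0.0231%) or S3WT (0.0576%). At an unadjusted p under 0.05, 12 members changed in S2KO, 9 of them upwards, against 9.25% of all probes in either direction and 5.21% upwards. In S3WT 7 members had such a p, all lower at 4 h, against 4.51% of all probes in either direction and 1.99% lower. They include Ier2 (-1.17 ± 0.46, adjusted p 0.731), Btg2 (-1.17 ± 0.35, adjusted p 0.288) and both Zfp36l1 probes. For S3KO there were 4 such members (all probes 5.56%), for U0126 5 (7.19%) and for S2WT 5 (6.54%).

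After the values were seen, the change from 1 to 4 h was also compared between lines. For S2KO minus S3WT, 0 of 8295 probes were called by limma, and 8 of 66 members had an unadjusted p under 0.05, all higher in S2KO, against 4.34% of all probes in either direction. The values were 2.69 ± 0.65 for Ier2 (adjusted p 0.262), 1.90 ± 0.52 for Myc (adjusted p 0.506), 1.68 ± 0.50 and 1.74 ± 0.83 for the Btg2 probes, 1.77 ± 0.74 for Nr4a1 probe 5980 and 1.31 ± 0.60 for Maff. These lines are not a matched knockout and wild-type pair. For S2KO minus S2WT the count was 1 of 65 members, against 4.09% of all probes, and 0 of 8281 probes were called. S3KO minus S3WT had 5 of 61 members with such a p, 4 of them higher in S3KO, against 4.07% of all probes, and 0 of 7717 probes were called. They include Ier2 (1.41 ± 0.69, adjusted p 0.999) and Btg2 probe 6924 (1.41 ± 0.53, adjusted p 0.9). S3KO minus S2KO had 4 of 61 members, 1 of them higher in S3KO, against 6.38% of all probes, and 2 probes, neither a member, were called (0.0263%). U0126 minus S2WT had 2 of 64 members, against 3.15% of all probes, and 0 of 8414 probes were called.

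**Figure D3:**
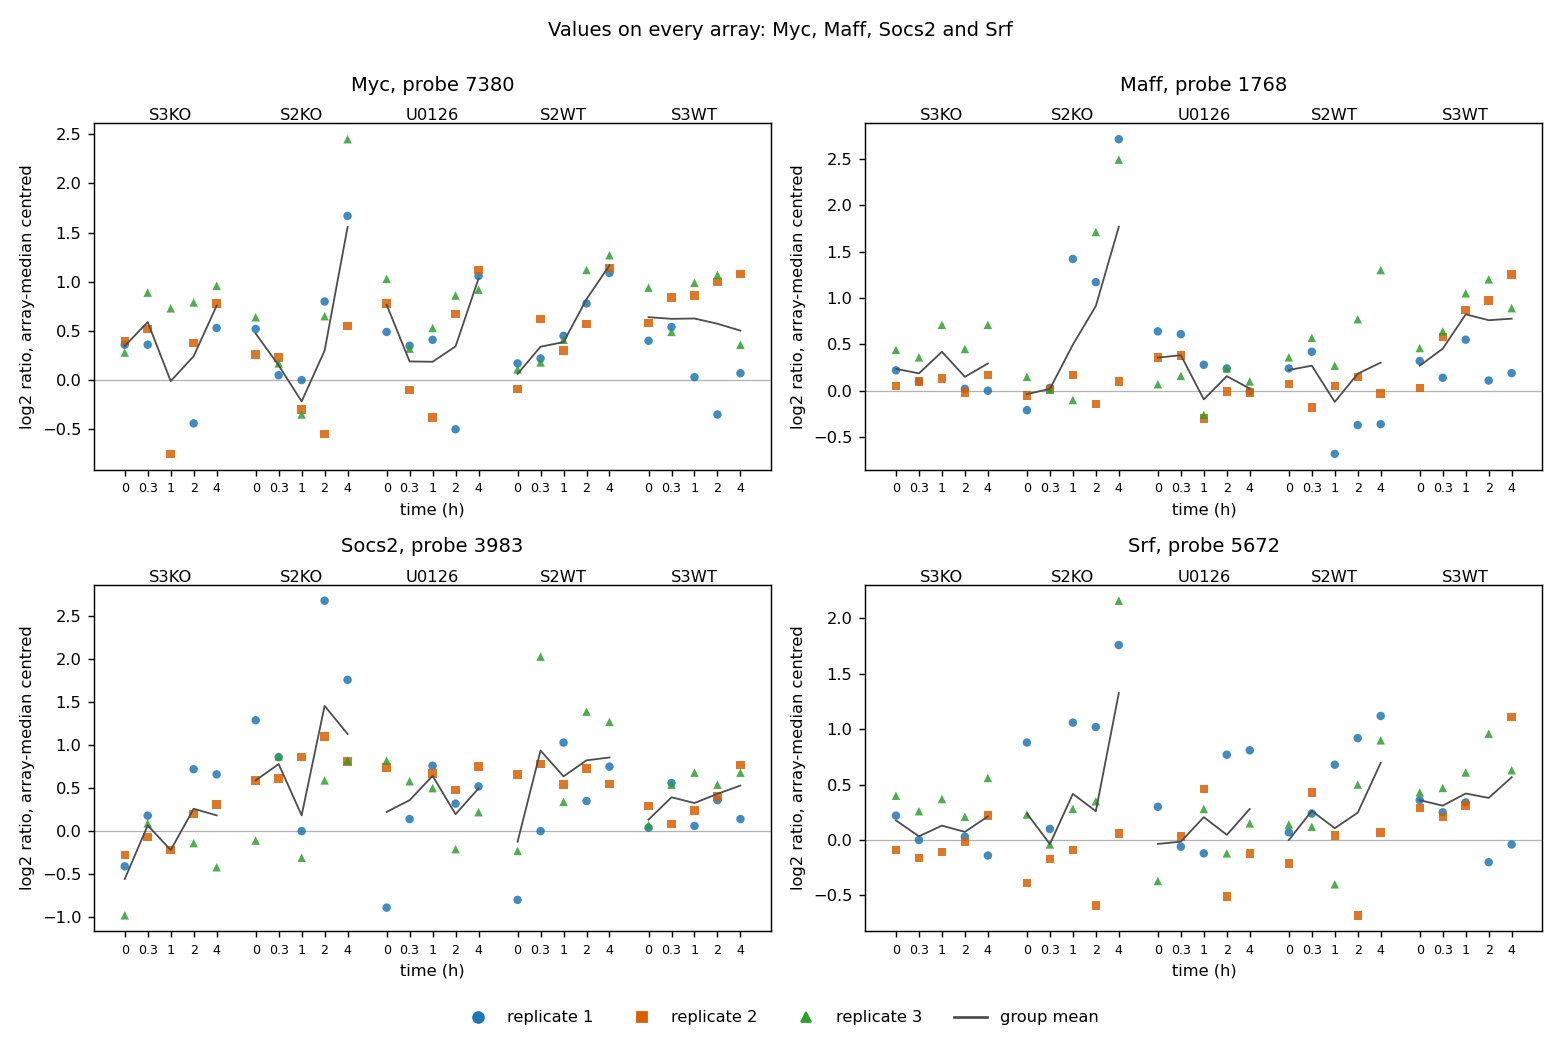
Centred log2 ratio on every array (vertical axis) against time in h (horizontal axis, by line) for Myc, Maff, Socs2 and Srf, with 1 marker shape per replicate number and a line through the group means. In S2KO at 4 h replicates 1 and 3 of Myc, Maff and Srf lie well above replicate 2.

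At 0.3 h no member was called in any line. The share of all probes called was 0.0648% in S3KO, 0.405% in S2KO, 0.5% in U0126, 0.0657% in S2WT and 0.196% in S3WT. The member count depended on single arrays at 0.3 h. It was 2 in S3WT without replicate 1, 2 in S2WT without replicate 2 and 1 in S2KO without replicate 2 or 3. Members were also called in S3WT after scaling the arrays to a common spread and with array weights. By unadjusted p under 0.05 there were 4 of 57 members in S3KO (4.73% of all probes), 4 of 56 in S2KO (8.23%), 1 of 53 in U0126 (7.13%), 4 of 56 in S2WT (6.5%) and 7 of 56 in S3WT (4.97%). In S2KO the tested members had a median of -0.20 at this time and 26.8% were above 0, while all probes had a median of -0.02 and 46.7% above 0. This low share was also found without centring (23.2%) and after scaling (25%). It rests on few arrays, of which replicate 1 had 7846 values, against 8426 and 8485 on replicates 2 and 3. Whether the low share holds without replicate 1 was not tested. The lists of members that passed unadjusted in S3WT were led by Ier2 and Btg2, described above.

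Among the AP-1 factors other than Maff none was called. Fos, the founding immediate-early gene, was measured on 62 arrays only and was scattered at 0 h, where single arrays read 5.40 in S3KO, 4.47 in S2KO and 3.34 in U0126. No treated Fos array exceeded 2.10, and Fos was not called at any time. Atf2 probe 6863 was at -0.75 ± 0.26 in S2KO (adjusted p 0.124). Over 1 to 4 h it ran from -5.02 through a median of -0.55 to -0.18 in S2KO, so the lowest array weighs on that mean. In S2WT it ran from -1.08 through -0.92 to -0.11, and at 0 h in all lines from -1.25 through -0.16 to 0.58. Fosl2 was not tested against the pool.

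Of the Dusp phosphatases, 10 of 13 probes were tested against the pooled arrays, and the single call was a fall. Dusp11, which acts on RNA and not on MAP kinases, read -0.08, -0.54 and -0.12 at 1 h, -0.64, -0.51 and -1.37 at 2 h, and -0.92, -0.92 and -1.39 at 4 h in U0126, against 0.15, -0.38 and -0.13 at 0 h. Its probe 8683 fell by 0.64 there (SE 0.15, adjusted p 0.023 by limma), while its probe 3505 did not pass. The call was lost without U0126 replicate 3 at 2 h or at 4 h. Dusp28 had the largest positive Dusp difference, 1.19 ± 0.34 in S2WT (adjusted p 0.0637). Its 2.16 against own 0 h arrays leaned on a 0 h array at -3.89. Dusp7 and Dusp9, which inactivate ERK, were not called in any line, with Dusp7 at -0.83 ± 0.36 in S3KO (adjusted p 0.867).

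The IκB genes gave 3 tested probes and no call. Nfkbia, the inhibitor of NF-κB, was at 0.62 ± 0.17 in S2WT on probe 6179 (adjusted p 0.0572) and at -0.41 ± 0.16 on probe 1430 (adjusted p 0.231), so its probes had opposite signs. Nfkbiz was at 0.65 ± 0.22 in S2WT (adjusted p 0.147). The Klf factors, zinc finger regulators of growth and differentiation, were never called, and the median difference of their probes was negative in all 5 lines, from -0.36 in S2KO to -0.05 in S3WT, and also without centring and after scaling. Klf5 was at -0.78 ± 0.25 in S2KO (adjusted p 0.0828) and -0.67 ± 0.24 in U0126 (adjusted p 0.214). Klf6 and Klf9 were among those that did not pass.

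Srf, the serum response factor, was at 0.52 ± 0.22 in S2KO (adjusted p 0.227), where it read 1.76, 0.06 and 2.16 at 4 h, against 0.88, -0.39 and 0.23 at 0 h. Ets1 and Elk4 were not called in any line. Ier5 was at 0.68 ± 0.23 in S2KO (adjusted p 0.109). Cebpa, a differentiation factor, was at -2.15 ± 0.61 in S3KO against its own 0 h arrays (adjusted p 0.0565), while against the pool it was at -0.31. Its S3KO 0 h replicates 1 and 3 both read 1.98, and replicate 2 was blank. Spry1, an antagonist of receptor tyrosine kinase signalling, was not called at any time. Zfp362, which belongs to none of the families, was called on 2 of 3 probes in S2KO against the pool, at 0.65 ± 0.13 (adjusted p 0.000627) and 0.59 ± 0.17 (adjusted p 0.0434). The call of its probe 370, the smaller of these, was kept in 8 of 24 fits with a single array left out and lost without centring, after scaling, with array weights and without the S3KO 0 h arrays. Its probe 7184 was highest at 2 h, with 1.97, 1.51 and 1.58, against 0.92, 0.52 and 0.62 at 0 h.

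The lines were then compared with each other at 1 to 4 h, directly between arrays and as differences of the responses against own 0 h arrays. Only S3KO against S2KO gave member calls: 4 of 59 members were lower in S3KO and none was higher, where 1.51% of all probes were called and 1.24% were lower. Ier2 was lower by 1.26 (-1.26 ± 0.28, adjusted p 0.00582 by limma), from arrays between -0.32 and 0.67 in S3KO, against 0.15 to 3.67 in S2KO. Btg2 probe 6924 was at -0.79 ± 0.21 (adjusted p 0.0354), from -0.34 to 0.51 in S3KO, against 0.07 to 2.49 in S2KO. The other 2 calls were Zfp362, at -0.81 ± 0.15 (adjusted p 0.000391) and -0.76 ± 0.20 (adjusted p 0.0305). For each of these the groups overlapped. Nr4a1 probe 5980 (-1.04 ± 0.31, adjusted p 0.077) and Maff (-0.77 ± 0.25, adjusted p 0.127) did not pass. Ier2 and Zfp362 probe 7184 kept their calls in 17 of 17 fits with a single array left out, and Btg2 and Zfp362 probe 370 in 9 of 17 each. The count was 7 without S2KO 4 h replicate 2 and 2 without S2KO replicate 1 at 1, 2 or 4 h, S3KO 1 h replicate 2 or S3KO 4 h replicate 2. Scaling the arrays to a common spread left none of the 4 (Ier2 -0.88, adjusted p 0.187). With only the S3KO and S2KO arrays fitted, Ier2 (adjusted p 0.102 by limma) and Btg2 (adjusted p 0.248) were lost. Only the Zfp362 calls were kept in that fit, so no family gene was called. Without centring Btg2 (adjusted p 0.149) and Zfp362 probe 370 (adjusted p 0.172) were lost. As a difference of responses against own 0 h arrays, no member of 54 was called (0.227% of all probes called). Ier2 was at 0.08 ± 0.58 in that comparison (adjusted p 0.987), with its S3KO 0 h arrays at -1.94, -0.40 and 0.55. Btg2 probe 6924 was at -0.49 ± 0.41 (adjusted p 0.785), Zfp362 probe 7184 at -0.32 ± 0.28 and Zfp362 probe 370 at -0.38 ± 0.38.

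No other pair of lines gave a member call. Between S2KO and S2WT, 0 of 62 were called directly (0.326% of all probes) and 0 of 60 in response (0.0386%). Maff came closest, at 0.94 ± 0.24 (adjusted p 0.0766 by limma). Between S3KO and S3WT, 0 of 59 were called directly and 0 of 55 in response, where 0% and 0.126% of all probes were. Nr4a1 probe 5980 was at -0.77 ± 0.31 (adjusted p 0.656) and Ier2 at -0.64 ± 0.28 (adjusted p 0.681) in that direct comparison. Between U0126 and S2WT, 0 of 62 were called directly and 0 of 61 in response, where 0% and 0.0252% of all probes were. Ier2 had the smallest p among members, at -0.72 ± 0.26 (p 0.00912, adjusted p 0.848), from 0.26 to 0.92 in U0126, against 0.72 to 1.82 in S2WT. At an unadjusted p under 0.05 the direct comparisons gave 17 members for S3KO against S2KO (13% of all probes), 8 for S2KO against S2WT (10.4%), 5 for S3KO against S3WT (5.95%) and 4 for U0126 against S2WT (4.88%). For differences of response the counts were 3, 4, 4 and 5 in the same order of pairs, with 9.37%, 7.13%, 9.05% and 6.11% of all probes. With 8 or 9 arrays a side, a miss does not show that the lines respond alike.

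Agreement between probes was described for the genes with several of them. For 12 genes with 27 probes, the ratios of paired probes were correlated across arrays, which share lines, times and array quality. Pearson's r was 0.59 for Btg2 over 72 arrays, 0.52 for Nr4a1 over 67 and 0.51 for Zfp36l1 over 71, and 0.53 to 0.70 for the 3 Zfp362 probes over 74. Spearman's rho was 0.41 for Btg2, 0.43 for Nr4a1 and 0.57 for Zfp36l1. Pearson's r was -0.04 for Nfkbia, -0.01 to 0.10 for Dusp11 and -0.02 for Klf7, with rho at 0.17, -0.07 to 0.23 and 0.09. For Atf2 the measures disagreed, with r at -0.17 and rho at 0.44 over 71 arrays. Between genes, Btg2 probe 6924 and Nr4a1 probe 5980 had r 0.82 (rho 0.56) over 70 arrays, Ier2 and Btg2 probe 6924 had 0.79 (rho 0.70) over 71, and Ier2 and Nr4a1 probe 5980 had 0.67 (rho 0.57) over 69. These were the highest r among probes of Ier2, Btg2, Nr4a1, Maff and Srf, genes taken from those described above. Ier2 had r 0.44 (rho 0.32) with Btg2 probe 7939 and 0.31 (rho 0.42) with Nr4a1 probe 649. In S2KO all probes of the high pairs were highest on 4 h replicate 1, and how far r rests on single arrays was not tested.

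**Figure D4:**
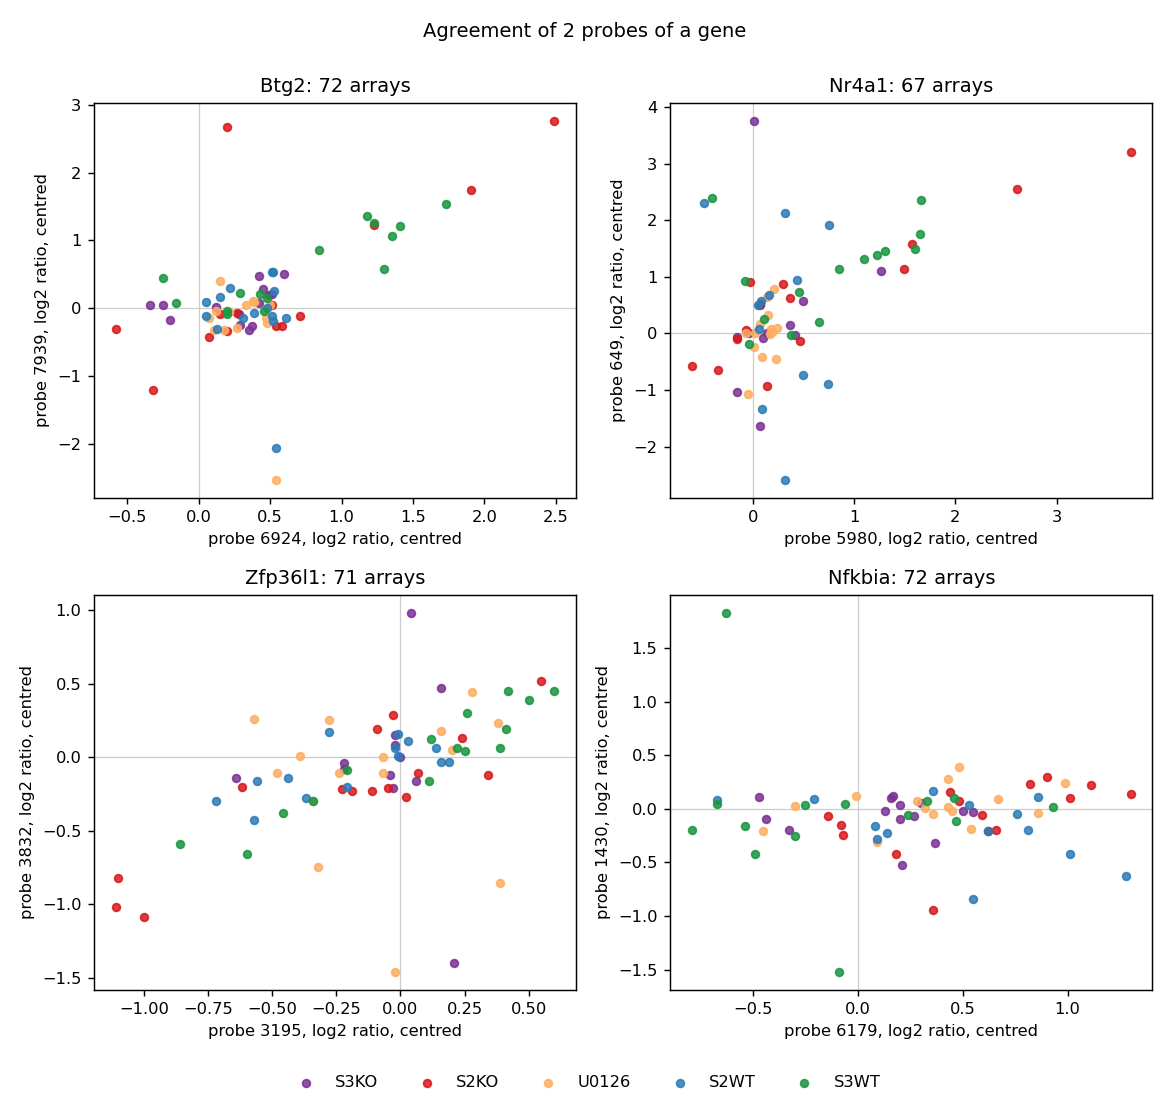
Centred log2 ratios of 2 probes of the same gene (horizontal and vertical axes), with 1 point per array coloured by line, for Btg2, Nr4a1, Zfp36l1 and Nfkbia. The points of the first 3 genes rise together (r 0.59, 0.52 and 0.51), and those of Nfkbia do not (r -0.04).

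Related genes outside the families were taken from 4 lists, which were chosen with earlier results of these data known. Against the pool 1.91% of all tested probes were higher in S2KO. In either direction 1.27% were called in S2WT, 0.782% in U0126, 0.146% in S3WT and 0.0141% in S3KO. Of 20 genes induced by or feeding back on ERK, 6 had a probe, 4 of them members, and against the pool 2 were higher in S2KO (Ier2 and Hbegf), 2 in S2WT (the same genes), 1 in U0126, 1 in S3WT and none in S3KO. Hbegf, a ligand of the EGF receptor, was at 2.23 ± 0.24 in S2KO, 1.15 ± 0.24 in U0126 (adjusted p 0.00582 by limma), 1.81 ± 0.24 in S2WT and 1.36 ± 0.24 in S3WT (adjusted p 0.00176). None of the 12 probes of the MAP kinase cascade, for 9 of 22 listed genes, was called in any line against the pool. The stress list had 4 probes for 15 genes, and Gadd45b alone was called, at 2.07 ± 0.21 in S2KO, 0.82 ± 0.21 in U0126 (adjusted p 0.0382), 1.35 ± 0.21 in S2WT and 0.95 ± 0.21 in S3WT (adjusted p 0.0414). Of 14 other serum-induced genes 3 had a probe. Rhob, a small GTPase, was at 1.13 ± 0.22 (adjusted p 0.000546) and Ccn1, a matrix-associated signalling protein, at 1.39 ± 0.28 (adjusted p 0.00167) in S2KO, and neither was called in another line. In the direct comparison S3KO was lower than S2KO for Hbegf (-2.11 ± 0.27), Gadd45b (-2.10 ± 0.24), Rhob (-1.35 ± 0.25, adjusted p 0.000659), Ccn1 (-1.21 ± 0.33, adjusted p 0.0415) and Mapkapk2 (-0.48 ± 0.13, adjusted p 0.0378). As a difference of responses against own 0 h arrays, no gene of the 4 lists was called between S3KO and S2KO. Against own 0 h arrays Hbegf and Gadd45b were called in S2KO (2.27 ± 0.37 and 1.72 ± 0.33) and S2WT (1.76 ± 0.37 and 1.45 ± 0.33), and in no other line.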

How the data were processed

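Expression was measured on 74 dual-channel mouse arrays. The deposited table holds the authors' log2 ratio for each probe and array. Dyes, background correction, normalisation and direction are not stated in the labels. Values of 16.61 were read as ratios with an empty denominator, and the 1344 values above 16.6 were set to missing (11 of them in members). Array medians as deposited ran from -0.595 to 0.215, and each array was centred on its median. Signal over background is unknown, so the number of arrays limits the precision.

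Group means were fitted by least squares per probe in R 4.3.3 over all 25 groups, and variances were moderated with squeezeVar of limma 3.58.1. Testing required 2 measured arrays in every group of a contrast, with Benjamini-Hochberg adjustment over all tested probes of the contrast at 0.05. The pooled background is the mean of the 5 group means at 0 h; its SE covers the spread between arrays and not differences in background between lines, and the comparisons of the lines share it. The script was tested on simulated data. Symbols came from the platform annotation, which gives 7348 probes 1 symbol, 399 several and 1229 none, and all 67 member probes matched a RefSeq gene ID. Probes of a gene were kept apart. Named were all called members, the member of each family with the smallest p in each pooled comparison, of which part is described, and a fixed list of well-known genes. The members and lists were chosen with earlier results of these data known.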

Additional observations from a re-analysis of the deposited data

Results flagged for a closer look

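In 4 member probes the difference between the S3KO and S2KO lines at 1 to 4 h was itself past the threshold by limma. Ier2 differed by -1.26 ± 0.28 (adjusted p 0.00582), Btg2 probe 6924 by -0.79 ± 0.21 (adjusted p 0.0354), Zfp362 probe 7184 by -0.81 ± 0.15 (adjusted p 0.000391) and Zfp362 probe 370 by -0.76 ± 0.20 (adjusted p 0.0305), all lower in S3KO. S3KO 1 h replicate 2 stands apart from the other arrays, and with its sign turned Btg2 was at -0.68 (adjusted p 0.104) and Zfp362 probe 370 at -0.67 (adjusted p 0.0819). Without this array Ier2 was at -1.14 (adjusted p 0.0486), Zfp362 probe 7184 at -0.72 (adjusted p 0.00957), Btg2 at -0.66 (adjusted p 0.249) and Zfp362 probe 370 at -0.65 (adjusted p 0.204). As a difference of responses against own 0 h arrays, Ier2 was at 0.08 ± 0.58 (adjusted p 0.987), Btg2 at -0.49 ± 0.41, Zfp362 probe 7184 at -0.32 ± 0.28 and Zfp362 probe 370 at -0.38 ± 0.38, none of them called. The 3 S3KO arrays at 0 h read -1.94, -0.40 and 0.55 for Ier2. With only the S3KO and S2KO arrays fitted, Ier2 (adjusted p 0.102 by limma) and Btg2 (adjusted p 0.248) were not called, and both Zfp362 probes were.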

How the results depend on the processing

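All counts are member probes called by limma. Without centring, the pooled comparison called 5 in S2KO, 0 in U0126 and 5 in S2WT, the 4 h minus 1 h change 3 in S2KO, S3KO against own 0 h 0, and S3KO minus S2KO 2. Scaled arrays gave 1 in S2KO and 0 in S2WT pooled, 2 in S3WT at 0.3 h, 0 in S2KO and 2 in S3WT for 4 h minus 1 h, 2 in S3KO and 1 in S2WT against own 0 h, and 0 for S3KO minus S2KO. Probes measured on every array gave 3 in S2KO, 0 in U0126 and 0 in S2WT pooled, with 18 members tested. Array weights (gene-by-gene estimates) gave 5 in U0126 and 5 in S2WT pooled, 2 in S3WT at 0.3 h, 4 in S2KO and 2 in S3WT for 4 h minus 1 h, 4 in S2KO, 0 in S3KO, 1 in S2WT and 1 in S3WT against own 0 h, and 1 for S2KO minus S2WT both directly and in response. Fitting only the arrays of the lines compared gave 2 in S2KO pooled, 0 in S2KO for 4 h minus 1 h, 0 in S3KO against own 0 h, 1 for U0126 minus S2WT and 2 for S3KO minus S2KO. In that setting the calls in S2KO pooled and for S3KO minus S2KO were all Zfp362 probes. The replicate block gave 3 in S2KO and 1 in S3WT for 4 h minus 1 h and 1 for S2KO minus S2WT directly. Same-numbered arrays of a line had correlated deviations over 0.1 in 69 of 146 pairs (mean r 0.1, S3KO replicate 3 in 10 of 10). Across lines this held for 169 of 730 pairs (mean r 0.023). The labels name no pairing, and the main fit took all arrays as independent. If same-numbered arrays of a line share a source, the SEs against the pool and directly between lines are too small. For those comparisons the block held only a replicate number common to all lines, which does not remove this. Testing treated arrays against 0, which counts each probe's background as response, gave 23 in S2KO, 0 in S3KO, 12 in U0126, 18 in S2WT and 8 in S3WT. Leaving S3KO 0 h out of the pool gave 4 in S2KO, 0 in U0126 and 1 in S2WT, turning the sign of S3KO 1 h replicate 2 gave 2 for S3KO minus S2KO, and leaving out the S2WT 4 h arrays gave 0 in S2WT pooled.

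Leaving out each array in turn gave 3 to 11 in S2KO, 0 to 2 in U0126 and 1 to 5 in S2WT pooled, 0 to 6 in S2KO for 4 h minus 1 h, 0 to 3 in S2KO and in S3KO and 0 to 2 in S2WT against own 0 h, 2 to 7 for S3KO minus S2KO, 0 to 2 for S2KO minus S2WT directly, 0 to 2 at 0.3 h in S2WT and S3WT, and 0 to 1 elsewhere. Of the called probes, Ets2 alone changed sign, to -0.16 with treated arrays against 0. The cause of these shifts was not tested.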
